A study of Homo sapiens with 6 samples.

Results

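The mitochondrial ribosomal protein genes are the nuclear genes for the proteins of the ribosome inside mitochondria. They were taken as the table rows whose symbol is MRPL or MRPS followed by a number, with or without a letter A, B or C. The rule took 76 of 23346 gene rows, of which 47 were MRPL symbols and 29 were MRPS symbols. All 76 averaged 0.5 RPKM or more across libraries, the filter for testing, which 14776 genes in all passed. RPKM is a read count scaled to the length of the gene and to the depth of the library, so that levels of different genes can be compared per length.

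The mitochondrial ribosome translates the messages of the mitochondrial genome, which code for core subunits of the respiratory chain. Its RNAs come from mitochondrial DNA, whereas each of its proteins is coded in the nucleus, made in the cytosol and imported. The large subunit forms peptide bonds and the small subunit reads the message. Some of the proteins have homologs in bacteria, and others were added in the mitochondrial lineage. Symbols do not always follow the subunit. MRPS30 and MRPS18A are now placed in the large subunit, and MRPS36 is now known as a component of the 2-oxoglutarate dehydrogenase complex of the citric acid cycle.

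RNA of KhES-1 cells, an established human embryonic stem cell line, was sequenced after maintenance in AKIT medium or in the control medium Essential 8 (E8). AKIT is known as a medium with small-molecule inhibitors of GSK3, DYRK kinases and calcineurin in place of growth factors, and E8 as a defined medium with FGF2 and TGF-beta. Cells of both groups grew on dishes coated with a laminin fragment. The 3 AKIT libraries were set against E8 replicates 1 and 2, while the third E8 replicate was not analysed here. All libraries come from a single line. Nothing in the labels ties the replicates to separate cultures, and the p-values therefore reflect only how far these libraries spread, which may be technical.

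The values rested on 19398694 to 23263095 reads in AKIT libraries and on 16242864 to 17657634 reads in E8 libraries. Over the members, single libraries held between 61 and 5842 reads per gene. AKIT replicate 2 stood apart from AKIT replicates 1 and 3 over the members, and results that rest on it are given with and without it. The pluripotency factor POU5F1 stood at 296 to 400 RPKM in AKIT libraries and 313 to 342 RPKM in E8 libraries. Over 10 pluripotency markers the summed level was 3878 to 4054 RPKM in AKIT libraries and 4651 to 4723 RPKM in E8 libraries, with SOX2 and PODXL lower by limma's test and none higher. Of 10 fibroblast and mesenchyme markers, 8 were tested, of which 4 fell and none rose in limma's test. Their summed level was 210 to 273 RPKM in AKIT and 367 to 369 RPKM in E8, with FAP at 0 in every library, and THY1 and COL1A1 made up most of it. COL3A1 and LUM went the other way without passing, with 5.63, 2.15 and 0.141 RPKM of COL3A1 in AKIT replicates 1 to 3, against 0.0413 and 0 RPKM in E8, and 5.81, 1.83 and 0.0244 RPKM of LUM in AKIT, against 0 RPKM in both E8 libraries. Both were highest in AKIT replicate 1, and both rose without AKIT replicate 3. Of 10 mesendoderm markers, 4 were tested and FOXA2 rose, with sums of 8.22 to 16.4 RPKM in AKIT and 4.57 to 4.91 RPKM in E8. Of 8 neural markers, 4 were tested and TUBB3 rose, with sums of 395 to 424 RPKM in AKIT and 344 to 365 RPKM in E8. Beside the calls in these marker sets, 8.22% of all tested genes rose and 11.7% fell. Whether these marker levels, THY1 among them, come from other cell types or from the stem cells themselves was not tested. The part of any such cells in the results below was not tested either. In bulk RNA fewer cells of a type and less RNA per cell cannot be told apart.

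The comparison of AKIT with E8 asked how the transcriptome differs between cells kept in the 2 media. Most mitochondrial ribosomal protein genes were slightly higher in AKIT, but few passed the test. Of the 76 members, 6 rose in AKIT and none fell. All 6 that rose were MRPL genes: MRPL21, MRPL47, MRPL35, MRPL38, MRPL44 and MRPL30. "Rose" and "fell" are used of genes with a Benjamini-Hochberg adjusted p under 0.05 over all 14776 genes in limma's moderated test on log2(RPKM + 1). The share of members that rose, 7.89%, was near the 8.22% of all tested genes that rose, and 11.7% of all tested genes fell. At an unadjusted p under 0.05 in limma, 27 members were higher and 2 were lower in AKIT, against 16.3% and 19.7% of all tested genes. With voom, limma's method for counts, run on reads recovered from the RPKM steps, 8 members rose and none fell, against 8.39% and 12.8% of all tested genes.

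The differences lay mostly on one side of 0 and were small. Differences are those of log2(RPKM + 1), AKIT less E8, a scale on which changes of low genes are understated. The log2 difference was above 0 for 60 of 76 members, against 48.8% of all tested genes. The median over members was 0.23, and over all tested genes -0.01. Single members ranged from -0.41 for MRPS10 to 0.73 for MRPL21. The 3 AKIT libraries were all above both E8 libraries for 32 members, or 42.1%, against 25.8% of all tested genes. They were all below both E8 libraries for 4 members (MRPS10, MRPL28, MRPL53 and MRPS27, named after their values were seen), against 28.6% of all tested genes. In the remaining 40 members the groups overlapped.

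**Figure D1:**
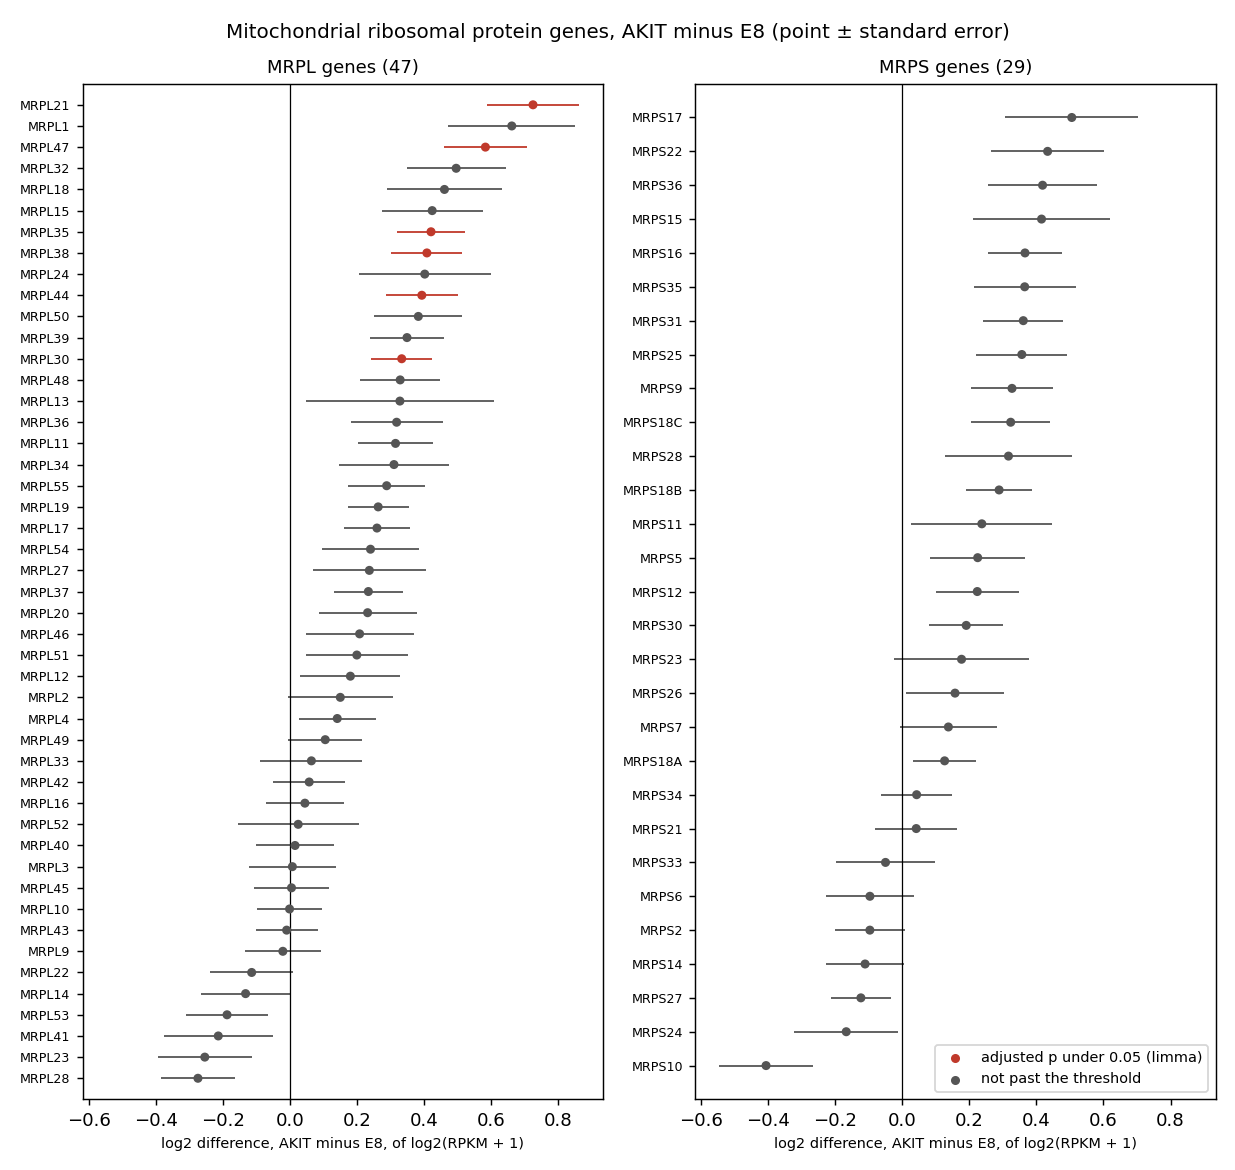
Difference in log2(RPKM + 1), AKIT minus E8 (horizontal axis), for each of the 47 MRPL genes (left) and 29 MRPS genes (right), with bars of ± 1 standard error from limma. The 6 red points passed an adjusted p of 0.05, and all are MRPL genes; 60 of 76 points lie to the right of 0.

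**Figure D2:**
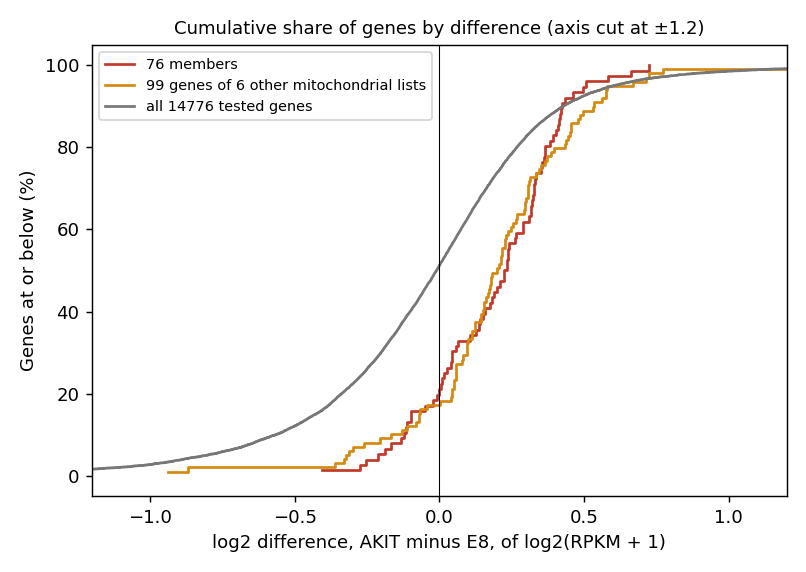
Cumulative share of genes (vertical axis, %) at or below a log2 difference of AKIT minus E8 (horizontal axis) for the 76 members, 99 genes of 6 other mitochondrial lists and all 14776 tested genes. The median difference is 0.23 for the members and -0.01 for all tested genes.

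The AKIT libraries did not share this equally. Against the mean of both E8 libraries, the median difference over the members was 0.26 in AKIT replicate 1, -0.02 in AKIT replicate 2 and 0.34 in AKIT replicate 3. Over all tested genes these medians were -0.01, -0.02 and -0.01. AKIT replicate 2 was the lowest of the AKIT libraries in 64 of 76 members, or 84.2%, against 40.1% of all tested genes. In AKIT replicates 1, 2 and 3, 52, 34 and 67 members were above both E8 libraries, against 42.6%, 41.6% and 43.4% of all tested genes. The summed level of the members was 3327, 2833 and 3575 RPKM in AKIT replicates 1, 2 and 3, against 2942 and 2918 RPKM in E8 replicates 1 and 2. By this sum AKIT replicate 2 lay below both E8 libraries, while the other AKIT libraries lay above them.

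The count of calls turned on this library. Without AKIT replicate 2, 34 members rose and none fell, where 14.5% of all tested genes rose and 17.8% fell. The 34 included the 6 members called with all libraries and 28 others, among them MRPL32, MRPL15, MRPL13, MRPS17 and MRPS22 (named after their values were seen). Without AKIT replicate 1, 2 members rose, MRPL21 and MRPL44. Without AKIT replicate 3, MRPL21 alone rose. With E8 replicate 1 or E8 replicate 2 left out no member passed in limma, with the lone E8 library assumed to vary like the AKIT group. Of all tested genes, leaving out AKIT replicate 1 gave 5.35% that rose and 8.5% that fell. For AKIT replicate 3 these shares were 4.62% and 7.55%. Without E8 replicate 1 0.969% rose and 1.72% fell, and without E8 replicate 2 0.963% rose and 1.7% fell. With the replicate number as a block MRPL21 alone rose, where 3.33% of all tested genes rose and 5.58% fell.

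**Figure D3:**
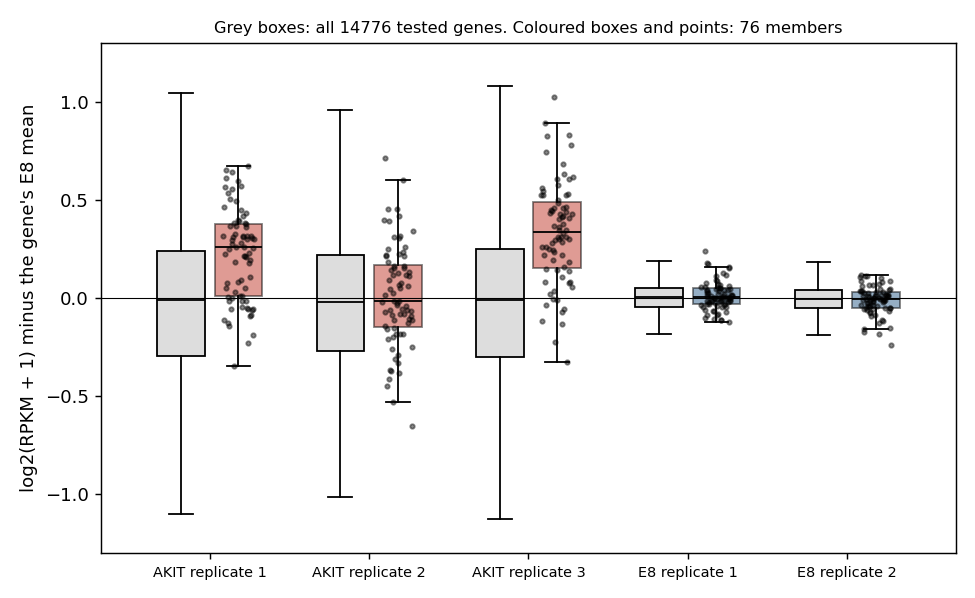
Log2(RPKM + 1) minus the gene's mean over both E8 libraries (vertical axis) by library (horizontal axis). Grey boxes show all 14776 tested genes, coloured boxes and points the 76 members (line, median; box, quartiles; whiskers, up to 1.5 times the box). The members' median is 0.26, -0.02 and 0.34 in AKIT replicates 1, 2 and 3.

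MRPL21, a large-subunit protein with a bacterial homolog, had the largest difference of the members. It stood at 8.37, 9.40 and 10.8 RPKM in AKIT replicates 1 to 3, against 4.87 and 5.82 RPKM in E8 replicates 1 and 2. Every AKIT library was above both E8 libraries, and AKIT replicate 2 was in the middle of the AKIT group. These levels rested on 138, 155 and 148 reads in AKIT and 61 and 67 reads in E8. The mean was 1.78-fold higher in AKIT, with a log2 difference of 0.73 ± 0.14 (standard error, limma adjusted p = 0.0144). The call held in 12 of the 14 alternatives and ended with either E8 library left out (limma adjusted p = 0.00966 to 0.149 over the alternatives).

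MRPL47, the counterpart of a bacterial protein near the exit of the peptide tunnel, stood at 13.4, 10.9 and 13.5 RPKM in AKIT replicates 1 to 3. In E8 replicates 1 and 2 it stood at 7.92 and 8.14 RPKM. The groups did not overlap, with AKIT replicate 2 nearest to E8 (log2 difference 0.58 ± 0.12, limma adjusted p = 0.0209). The other 2 members with a bacterial homolog that rose were MRPL35 and MRPL30. MRPL35 had 24.0, 23.3 and 27.0 RPKM in AKIT replicates 1 to 3, against 18.2 RPKM in both E8 libraries (0.42 ± 0.10, limma adjusted p = 0.0305). MRPL30 had 18.5, 18.5 and 19.2 RPKM in AKIT, against 14.5 and 14.8 RPKM in E8 (0.33 ± 0.09, limma adjusted p = 0.043). In both genes every AKIT library was above both E8 libraries, and in MRPL30 AKIT replicate 2 was level with AKIT replicate 1.

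MRPL38 and MRPL44 are proteins of the large subunit with no bacterial ribosomal homolog, and MRPL44 has a fold related to RNase III. MRPL38 stood at 22.8, 21.4 and 25.0 RPKM in AKIT replicates 1 to 3, against 17.8 and 16.5 RPKM in E8 (0.41 ± 0.11, limma adjusted p = 0.0374). MRPL44 stood at 54.2, 58.9 and 63.2 RPKM in AKIT, against 41.8 and 47.2 RPKM in E8 (0.39 ± 0.11, limma adjusted p = 0.0444). For both genes the AKIT libraries were above both E8 libraries. The calls of MRPL47, MRPL35, MRPL38, MRPL44 and MRPL30 held in 8 or 9 of the 14 alternatives each. All 5 ended without AKIT replicate 3 and with either E8 library left out, and all but MRPL44 ended without AKIT replicate 1. MRPL44 also ended with no filter, and MRPL35 and MRPL30 with the GC trend removed. Their highest adjusted p over the alternatives in limma was 0.167, 0.223, 0.287, 0.340 and 0.291.

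**Figure D4:**
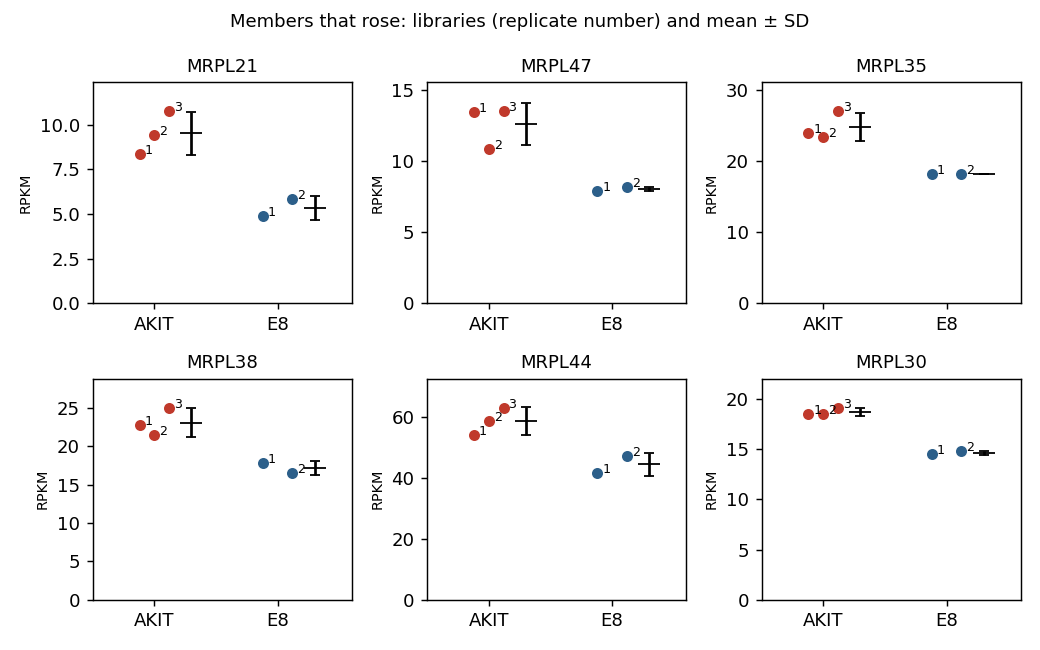
RPKM (vertical axes, from 0) of the 6 members that rose, by medium. Points are libraries with their replicate number, and the bar beside them is the mean ± SD (n = 3 for AKIT, n = 2 for E8). In all 6 panels the AKIT libraries lie above both E8 libraries.

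Just outside the threshold were MRPL1, MRPL32 and MRPS16 (MRPL1 and MRPS16 named after their values were seen). MRPL1, the counterpart of the bacterial stalk protein L1, had 6.96, 6.67 and 10.4 RPKM in AKIT replicates 1 to 3, against 4.29 and 4.94 RPKM in E8 replicates 1 and 2 (log2 difference 0.66 ± 0.19, limma adjusted p = 0.0503). Its difference was the second largest of the members, and AKIT replicate 3 was well above the other AKIT libraries. MRPL32, which the inner-membrane m-AAA protease matures before assembly, had 128, 94.3 and 125 RPKM in AKIT, against 83.0 and 79.2 RPKM in E8 (0.50 ± 0.15, limma adjusted p = 0.0559). The interval of this difference was 0.15 to 0.85. MRPS16 had the smallest adjusted p of the MRPS genes (0.0565 in limma), at 76.6, 79.7 and 92.5 RPKM in AKIT against 64.3 and 63.5 RPKM in E8. These genes turned on the processing, with MRPL1 passing in 6 and MRPL32 in 5 of the 14 alternatives. All 3 passed with median-of-ratios scaling, with the length trend removed and without AKIT replicate 2. MRPL1 and MRPL32 also passed with quantile normalization, MRPL32 and MRPS16 with voom, MRPL1 with a pseudocount of 0.1 or a filter of 2 RPKM, and MRPS16 with the GC trend removed. In MRPL32, AKIT replicate 2 lay far below the other AKIT libraries, while in MRPS16 it did not.

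The most abundant members per length were MRPS34, MRPL51, MRPS6 and MRPL32, and in MRPS34, MRPL51 and MRPS6 the media overlapped. MRPS34, a small-subunit protein in which variants are known in Leigh syndrome, had 250 RPKM in AKIT replicate 1, 219 in AKIT replicate 2 and 251 in AKIT replicate 3, against 235 and 231 RPKM in E8 (0.04 ± 0.11, 95% interval -0.21 to 0.30). MRPL51 had 188, 142 and 197 RPKM in AKIT, against 149 and 154 RPKM in E8 (0.20 ± 0.15), and MRPS6, with a bacterial homolog, 107, 89.5 and 118 RPKM in AKIT, against 108 and 115 RPKM in E8 (-0.10 ± 0.13). In these 3 genes AKIT replicate 2 lay below both E8 libraries. Without AKIT replicate 2 MRPL51 rose (log2 difference 0.35, limma adjusted p = 0.0173, within 0.0173 to 0.704 over the alternatives). The mean level over the 5 libraries spanned 3.65 RPKM for MRPL22 to 237 RPKM for MRPS34, with a median of 31.5 RPKM, against 8.56 RPKM for all tested genes. Across the 76 members, which are not independent replicates, Spearman's rho of the log2 difference with this mean level was -0.34.

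Members with the smallest differences were MRPL10, MRPL45, MRPL3 and MRPL43. MRPL10, which anchors the stalk that recruits translation factors, averaged 55.2 ± 3.03 RPKM in AKIT and 55.2 ± 3.70 RPKM in E8 (SD, n = 3 and 2), with a 95% interval of the log2 difference from -0.23 to 0.23. MRPL45, which links the ribosome to the inner membrane, averaged 35.6 ± 3.21 RPKM in AKIT and 35.4 ± 3.02 RPKM in E8 (-0.26 to 0.27). MRPL3, a protein with a bacterial homolog, averaged 68.8 ± 9.93 RPKM in AKIT and 67.9 ± 1.12 RPKM in E8 (-0.30 to 0.32). MRPL43 averaged 20.3 ± 0.911 RPKM in AKIT and 20.4 ± 0.0478 RPKM in E8 (-0.23 to 0.21). The first 3 intervals reach the median of the members, 0.23, and that of MRPL43 stops just short of it.

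At the low end were MRPS10 and MRPL28 (named after their values were seen), both with bacterial homologs. MRPS10 had 14.8, 11.8 and 16.3 RPKM in AKIT replicates 1 to 3, against 19.3 and 19.0 RPKM in E8 (-0.41 ± 0.14, limma adjusted p = 0.0844). MRPL28 had 56.4, 46.5 and 48.4 RPKM in AKIT, against 61.4 and 60.6 RPKM in E8 (-0.27 ± 0.11, limma adjusted p = 0.122). In both genes all AKIT libraries lay below both E8 libraries. MRPS10 passed with each library's trend on GC content removed (log2 difference -0.48, limma adjusted p = 0.0472, within 0.0472 to 0.337 over the alternatives), where 5 members rose, 9.09% of all tested genes rose and 10.1% fell.

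By subunit, with MRPS30 and MRPS18A in the large one and MRPS36 in neither, the median log2 differences were close together. It was 0.26 over 30 large-subunit proteins listed with a bacterial homolog, of which 4 rose, and 0.19 over 19 listed without one, of which 2 rose. It was 0.22 over 16 small-subunit proteins listed with a bacterial homolog and 0.23 over 10 listed without one. The lists put MRPS18A and MRPS18B among those without one, although both are related to MRPS18C, which is listed with one. Of all tested genes 8.22% rose. Of the 29 MRPS symbols none passed in limma, while 10 were higher and 1 lower in AKIT at an unadjusted p under 0.05, and 1, MRPS16, rose with voom. Of all tested genes 16.3% were higher and 19.7% lower at that unadjusted p, and 8.39% rose with voom. In limma 14 of the 29 rose without AKIT replicate 2, 3 rose with the length trend removed, and 1 rose with median-of-ratios scaling or with the GC trend removed. Shares of all tested genes that rose were 14.5% without AKIT replicate 2, 10.8% with the length trend removed and 9.09% with the GC trend removed. With median-of-ratios scaling 1346 of all tested genes rose. Of the 47 MRPL symbols, 17 were higher and 1 lower at that unadjusted p, and 20 rose without AKIT replicate 2. Whether the subunits differ was not tested.

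The MRPS18 genes code for 3 related proteins, of which MRPS18A sits in the large subunit and MRPS18B and MRPS18C sit in the small one. MRPS18A had 41.4, 37.6 and 40.2 RPKM in AKIT replicates 1 to 3, against 35.3 and 37.3 RPKM in E8 (0.13 ± 0.09, limma adjusted p = 0.374). MRPS18B had 45.8, 39.8 and 43.1 RPKM in AKIT, against 34.0 and 35.8 RPKM in E8 (0.29 ± 0.10, limma adjusted p = 0.0839). MRPS18C had 19.1, 21.1 and 17.4 RPKM in AKIT, against 14.1 and 16.1 RPKM in E8 (0.32 ± 0.12, limma adjusted p = 0.0968). In all 3 the AKIT libraries were above both E8 libraries, and none passed the test. MRPS30 had 39.9, 35.5 and 42.4 RPKM in AKIT, against 32.6 and 35.9 RPKM in E8 (0.19 ± 0.11, limma adjusted p = 0.259), and here the groups overlapped. MRPS36, the citric acid cycle protein, was among the lowest, at 5.82, 4.17 and 5.004 RPKM in AKIT, against 3.96 and 3.01 RPKM in E8 (0.42 ± 0.16, limma adjusted p = 0.116). MRPS18B and MRPS36 rose without AKIT replicate 2 (log2 differences 0.34 and 0.52).

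Reads of some members may be shared with other genes, and how the authors counted such reads is not given in the sources used here. By name, 33 of 76 members have pseudogenes in GENCODE release 29, up to 8 for MRPS21. Among the members that rose these were MRPL35 with 4 and MRPL30 with 1, whose levels are uncertain to that degree. Of the members with a named pseudogene 2 of 33 rose (median log2 difference 0.23), and of those without 4 of 43 rose (median 0.22). Both counts are near the 8.22% of all tested genes that rose. Exons of 34 members overlap those of another gene in that annotation, 24 of them on the opposite strand, and the use of strand is not stated. Among the members that rose, the longest overlap of single exons was 124 bases for MRPL47, with ACTL6A on the opposite strand. For MRPL44 it was 225 bases with an antisense gene. For MRPL38 it was 56 bases with an overlapping gene on its own strand and 39 with an antisense gene. For MRPL30 it was up to 184 bases with genes on its own strand.

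Lengths were recovered from the RPKM steps, as the smallest that gave whole reads. By these the members were short, with a median of 1238 bases against 2872 bases for all tested genes. Spearman's rho of the log2 difference with length was -0.00 over all tested genes and also -0.00 over the members, and with GC content it was -0.22 over the 14158 tested genes with a GC value and -0.29 over the members. With each library's trend on gene length removed, 15 members rose and none fell, where 10.8% of all tested genes rose and 12.1% fell. The 15 were the 6 members called with all libraries and MRPL1, MRPL11, MRPL15, MRPL18, MRPL32, MRPL50, MRPS16, MRPS18B and MRPS31.

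Promoters of nuclear genes for mitochondrial proteins are known for sites of NRF1, of the ETS factor GABP and of YY1. RefSeq windows (GRCh38.p14) from 250 bases before to 50 bases after a start matched 67 of 76 members. They were searched on both strands for the ETS letters CCGGAAG, for the YY1 letters AAGATGGC, for the CCAAT box as GCCAATC and for the palindrome of NRF1. The ETS letters were in windows of 29 of the 67 members (43.3%), against 12.2% of all 27305 genes with a window. The YY1 letters were in those of 21 members (31.3%), against 3.52% of all genes. The NRF1 palindrome was in 1 member, MRPL17 (1.49%), against 1.52% of all genes, and the CCAAT letters in 6 (8.96%), against 7.78%. Counting a site in overlapping windows of a gene once, 27 of 38 ETS sites began within 50 bases of a start, and 16 of 22 YY1 sites began after one. The 27305 genes were not limited to those tested here, so they may differ from the members in expression and in gene type. A match is a description of letters and no measure of binding.

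**Figure D5:**
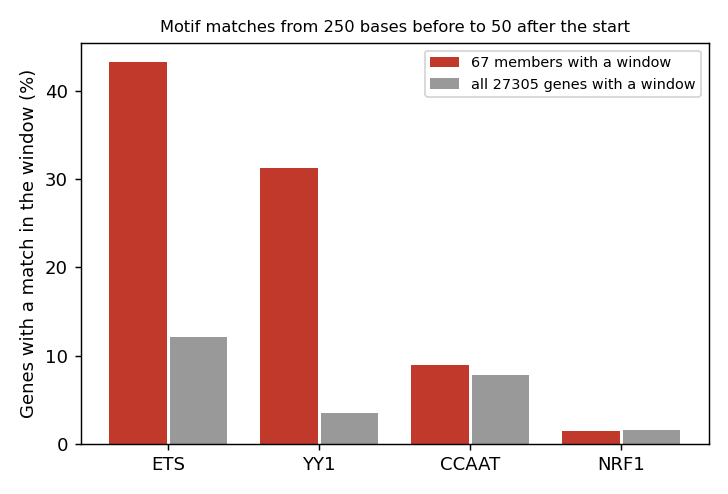
Share of genes (vertical axis, %, from 0) with the searched letters in a RefSeq window from 250 bases before to 50 after a start, for the 67 members with a window (red) and all 27305 genes with a window (grey). The members stand at 43.3% and 31.3% for ETS and YY1, against 12.2% and 3.52% of all genes, and near all genes for CCAAT and NRF1.

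Both ETS and YY1 letters were found in 8 members (11.9%, against 0.762% of all genes), and in none of the 8 did the matches overlap. They are MRPL20, MRPL38, MRPL47, MRPL51, MRPL52, MRPS10, MRPS12 and MRPS18A, of which 2 rose, where 8.22% of all tested genes rose. Whether holding both goes with rising was not tested, and 8 members are few. The windows are shown for MRPL47 and MRPL38, which rose, and for MRPS10, the member with the lowest difference, and were picked by those values. Capitals mark the ETS and YY1 letters on either strand, 5′ to 3′ along the gene. The windows lie at chr3:179604589-179604888, chr17:75904835-75905134 and chr6:42217812-42218111, each on the minus strand of GRCh38.p14.
MRPL47: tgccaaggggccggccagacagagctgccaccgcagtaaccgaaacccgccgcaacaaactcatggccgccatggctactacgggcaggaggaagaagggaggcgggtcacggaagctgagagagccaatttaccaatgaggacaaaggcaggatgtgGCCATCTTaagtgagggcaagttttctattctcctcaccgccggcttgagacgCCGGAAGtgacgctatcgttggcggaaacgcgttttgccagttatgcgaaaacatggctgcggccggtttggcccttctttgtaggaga
MRPL38: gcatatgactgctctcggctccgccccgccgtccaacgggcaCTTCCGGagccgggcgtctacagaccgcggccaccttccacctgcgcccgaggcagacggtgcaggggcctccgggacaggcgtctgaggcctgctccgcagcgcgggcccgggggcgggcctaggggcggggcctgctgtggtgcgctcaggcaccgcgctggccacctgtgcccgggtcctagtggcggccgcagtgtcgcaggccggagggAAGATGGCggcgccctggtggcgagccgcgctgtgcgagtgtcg
MRPS10: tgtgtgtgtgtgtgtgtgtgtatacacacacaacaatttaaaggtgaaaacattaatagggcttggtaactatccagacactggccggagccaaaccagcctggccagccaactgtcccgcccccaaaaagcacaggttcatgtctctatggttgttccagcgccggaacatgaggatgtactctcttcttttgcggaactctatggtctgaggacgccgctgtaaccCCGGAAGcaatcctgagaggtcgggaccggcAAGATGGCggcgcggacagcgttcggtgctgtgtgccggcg
In MRPL47 the ETS letters begin 39 bases and the YY1 letters, in reverse, 92 bases before the start. In MRPS10 the ETS letters begin 22 bases before the start and the YY1 letters at base 10 after it, and in MRPL38 the YY1 letters begin at base 7 after the start. Over the members the median log2 difference was 0.18 with the ETS letters and 0.24 without, and 0.19 with the YY1 letters and 0.24 without.

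Other proteins of the same ribosome carry symbols outside the rule. DAP3, PTCD3, CHCHD1, AURKAIP1, GADD45GIP1, ICT1 and MRP63 were set beside the members together with OXA1L, the inner-membrane insertase that receives new mitochondrial proteins. Of these 8 genes all were above 0 in the log2 difference (median 0.19), and OXA1L rose, where 8.22% of all tested genes rose. OXA1L had 44.1, 44.1 and 45.5 RPKM in AKIT replicates 1 to 3, against 35.0 and 34.5 RPKM in E8 (0.35 ± 0.09, limma adjusted p = 0.0311). Its call ended with the replicate number as a block. Without AKIT replicate 2, 4 of the 8 rose, and without AKIT replicate 1, AKIT replicate 3 or either E8 library none did in limma.

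Of 14 mitochondrial translation factors and activators, 12 were above 0 (median 0.25), of which 2 rose and none fell in limma, where 8.22% of all tested genes rose and 11.7% fell (none lower at an unadjusted p under 0.05, and none with voom). LRPPRC, which stabilises mitochondrial messages, had 33.5, 35.3 and 38.9 RPKM in AKIT replicates 1 to 3, against 20.1 and 21.01 RPKM in E8 (0.77 ± 0.10, limma adjusted p = 0.00412). TUFM, the mitochondrial elongation factor Tu, had 103, 91.9 and 107 RPKM in AKIT, against 71.3 and 67.2 RPKM in E8 (0.53 ± 0.10, limma adjusted p = 0.0156). In both genes every AKIT library was above both E8 libraries, and both calls ended with either E8 library left out. That of TUFM ended also with the replicate number as a block. Of 24 assembly factors 3 rose and 1 fell (median 0.08). The first count is somewhat above the 8.22% of all tested genes that rose, and the second is below the 11.7% that fell. MRM1 (0.71 ± 0.14) and RNMTL1 (-0.36 ± 0.10), which methylate the RNA of the large subunit, went opposite ways, and FASTKD2, an RNA-binding assembly factor, rose by 0.58 ± 0.11 on the log2 scale. MRM1 ended without AKIT replicate 3 and with either E8 library left out. FASTKD2 ended with either E8 library left out and with the replicate number as a block. RNMTL1 ended without AKIT replicate 1, AKIT replicate 3 or either E8 library. RNMTL1 passed in 4 of the 14 alternatives, and ended also with no filter, median-of-ratios scaling, voom, the length or GC trend removed, and the replicate block.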

How the data were processed

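RNA-sequencing libraries of KhES-1 cells were deposited as RPKM, which the authors had scaled for length and depth. The submitters' processing notes name hg19 and GRCh37. Aligner, counter, annotation and strand setting: not given in the sources used here. Columns were matched to samples by title. The third E8 replicate has no values in this comparison, which was therefore run as 3 with 2 libraries. Since low values are whole multiples of 1 read, totals of 16242864 to 23263095 reads could be recovered, and 100% of 19892 genes above 0 came out whole within 0.02 reads.

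The test was limma 3.58.1 (R 4.3.3) with trend on log2(RPKM + 1), two-sided, adjusted by Benjamini-Hochberg at 0.05 over 14776 genes that averaged 0.5 RPKM or more, with neither covariate nor block. It was tested on simulated data. The 14 alternatives changed the pseudocount (0.1), the filter (none, or 2 RPKM), the scaling (median of ratios, quantiles), the method (voom on recovered reads), took out loess trends (span 0.3) on length or on GC content, added the replicate number as a block, or left out 1 library. GC content and overlaps were taken from GENCODE release 29, where 95.8% of tested genes had a symbol match.

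The members and lists were chosen with earlier results of these data known. Named members were those called, the 4 highest in mean RPKM, the 4 nearest to 0 in difference, the MRPS18 genes, MRPS30 and MRPS36. From each other list up to 2 called genes per direction were named. Genes outside this rule are said to be so.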

Additional observations from a re-analysis of the deposited data

How the results depend on the processing

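The median log2 difference of the members stayed above 0 in all 14 alternatives (0.13 to 0.31, against 0.23). The count of members that rose was 6, and became 15 with the length trend removed and 0 to 34 with 1 library left out, 34 being the count without AKIT replicate 2. With the GC trend removed 1 member fell. Over all tested genes, leaving out 1 library gave 142 to 2132 that rose and 250 to 2619 that fell, against 1214 and 1736. Over 99 genes of the 6 other mitochondrial lists, 17 rose and 3 fell. These counts became 1 to 33 and 0 to 4 with 1 library left out, and 1 fell with no filter or with the GC trend removed. The cause of these changes was not tested. E8 rests on 2 libraries, which limits every call.

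With the replicate number as a block, 1 member rose, 492 of all tested genes rose and 824 fell, and in the other mitochondrial lists 5 rose and 1 fell. AKIT replicate 3 has no partner there, so that this estimate rests on replicates 1 and 2. Deviations of same-numbered libraries from their group means correlated at -0.001 and 0.025 over all tested genes. With 2 E8 libraries the E8 deviations mirror each other, so these values cannot decide whether same-numbered libraries were handled together.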

Other observations

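Genes of mitochondrial RNA handling and protein import, which work beside the ribosome, were described from lists as well. Of 16 genes of mitochondrial transcription and RNA processing 6 rose and none fell in limma (1 was lower at an unadjusted p under 0.05, and none fell with voom), where 8.22% of all tested genes rose. SLIRP, the partner of LRPPRC in the stabilisation of mitochondrial messages, had 7.47, 9.42 and 10.4 RPKM in AKIT replicates 1 to 3, against 1.85 and 2.17 RPKM in E8 (log2 difference 1.74 ± 0.15, limma adjusted p = 0.00144). This call held in all 14 alternatives. RG9MTD1, a subunit of mitochondrial RNase P, had 101, 93.6 and 114 RPKM in AKIT, against 63.2 and 60.2 RPKM in E8 (0.72 ± 0.11, limma adjusted p = 0.00722), a call that ended with either E8 library left out. Without AKIT replicate 3 or with the replicate block 3 of the 16 rose, and with either E8 library left out 1 did.

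Of 27 genes of protein import 26 were above 0 (median log2 difference 0.24), of which 5 rose and none fell in limma, where 8.22% of all tested genes rose and 11.7% fell (none lower at an unadjusted p under 0.05, and none with voom). HSPA9, the matrix Hsp70 of the import motor, had 112, 115 and 127 RPKM in AKIT replicates 1 to 3, against 83.1 and 78.7 RPKM in E8 (0.53 ± 0.10, limma adjusted p = 0.0132). Its call ended with either E8 library left out. TIMM8A, a chaperone of the intermembrane space, had 30.7, 26.8 and 31.9 RPKM in AKIT, against 21.4 and 20.5 RPKM in E8 (0.49 ± 0.11, limma adjusted p = 0.0235), a call that held without AKIT replicate 2 and ended without any other library. Without AKIT replicate 2, 15 of the 27 rose, where 14.5% of all tested genes rose, while 2 did without AKIT replicate 1 and 1 did without AKIT replicate 3. None of the 27 rose in limma when an E8 library was left out or with the replicate block.

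Of 10 regulators of mitochondrial gene expression 2 fell and none rose in limma, where 11.7% of all tested genes fell (3 were higher at an unadjusted p under 0.05, and 1 rose with voom). MYCN had 64.3, 85.5 and 62.7 RPKM in AKIT replicates 1 to 3, against 133 and 137 RPKM in E8 (-0.94 ± 0.15, limma adjusted p = 0.00779). MYC had 70.2, 125 and 74.5 RPKM in AKIT, against 156 and 163 RPKM in E8 (-0.87 ± 0.24, limma adjusted p = 0.0442), with AKIT replicate 2 well above the other AKIT libraries. MYCN passed in 12 and MYC in 6 of the 14 alternatives. The call of MYC ended with no filter, quantile normalization, the GC trend removed or the replicate block. It ended also without AKIT replicate 1 or 3, and both calls ended when an E8 library was left out. GABPA (0.05 ± 0.11), NRF1 (0.12 ± 0.12) and YY1 (-0.04 ± 0.10), factors tied to the motifs searched, did not pass. PPARGC1A, a coactivator of mitochondrial biogenesis, had 1.08, 1.26 and 1.66 RPKM in AKIT, against 0.932 and 0.819 RPKM in E8 (0.31 ± 0.15, limma adjusted p = 0.199). The 3 genes higher at an unadjusted p were GABPB1 (0.25 ± 0.10), PPARGC1B (0.435 ± 0.14) and ESRRA (0.33 ± 0.10). Their limma adjusted p was 0.119, 0.0768 and 0.0577. GABPA, NRF1, YY1, PPARGC1A and these 3 genes were named after their values were seen.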
